A study of Sus scrofa with 4 samples.

Results

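Ribosomal protein genes were followed across 4 single-cell libraries of meniscus from the pig, a pad of fibrocartilage in the knee joint. They were chosen by symbol alone: RPL or RPS followed by a digit, or RPLP0, RPLP1, RPLP2 or RPSA, with the kinases whose symbols start with RPS6K left out. This rule found 55 genes among 21280 features, 32 with RPL symbols (large, 60S subunit) and 23 with RPS symbols (small, 40S subunit). A further 8 features are named ribosomal protein genes only by the reference table of gene names (RPLP1, RPL7A, RPL14, RPS24, RPS27A, RPS2, RPS7 and RPL23A) and were kept outside the list. No feature carried the symbol RPS27 or RPL39, so these genes were not analysed here. The symbols RPL17-C18orf32 and RPL36A-HNRNPH2 stand for read-through loci.

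There was 1 library for the red and 1 for the white zone of the lateral meniscus, and the same for the medial meniscus. As background, vessels reach the outer, red zone of a meniscus and are lacking in the inner, white zone. Tissue was cleared of synovium and digested with pronase and then collagenase before 10x Genomics 3' v3.1 libraries were made. Breed, age, sex and number of animals are not given in the sources used here, so p-values describe the spread between these 4 libraries, which may be technical.

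After filtering, 5562 cells remained in the lateral red and 7381 in the lateral white library, and 6801 in the medial red and 7807 in the medial white library, the order of every set of 4 values below. The kept cells held 9215366, 13716080, 11839931 and 14902274 UMIs (unique molecular identifiers, each counting 1 captured RNA molecule), with a median of 1452 to 1617 per cell. Between 10 and 20 cell barcodes were shared by each pair of libraries. The mitochondrially encoded genes held 2.45%, 1.85%, 2.85% and 2.10% of UMIs, higher in both red libraries.

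Each ribosome carries the core ribosomal proteins in single copies, apart from the acidic stalk proteins, so their genes are transcribed at high and broadly matched levels in nearly all cells. Their mRNAs start with a terminal oligopyrimidine (TOP) tract that lets mTOR and LARP1 adjust their translation together. A few members have paralogs or work outside the ribosome: RPL22 is known in mouse cells to repress its paralog RPL22L1, RPS27L is a target gene of p53, and RPL5, RPL11 and RPL23 can bind MDM2, which restrains p53. In cartilage, chondrocytes depend on protein synthesis to lay down collagen and aggrecan.

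The levels of single members spread widely. Levels are in CPM, that is UMIs per 1000000 UMIs of a library. The assay counts 3' ends, so levels were not divided by gene length. RPL10 (chromosome X, 124927249 to 124929791, Sscrofa11.1, as are all positions here), which joins the 60S subunit late in its maturation, had the highest mean. Its level was 8631, 9713, 9694 and 6712 CPM, and it was detected in 99.1% to 99.8% of the cells of a library. High levels were also held by the 40S proteins RPS20 (5528, 7721, 7820 and 6439 CPM) and RPS12 (4245, 5983, 6126 and 4705 CPM). RPLP0, the base of the stalk, had 4073, 4324, 4300 and 3057 CPM. In all 4 of these genes the zones overlapped.

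At the low end stood relatives that carry the name of a ribosomal protein but are not thought to be part of most ribosomes. RPL7L1, a nucleolar relative of RPL7, had 76.8, 40.2, 65.1 and 40.8 CPM, and both white libraries were below both red libraries. RPL26L1, the paralog of RPL26, had 31.7, 39.9, 42.7 and 43.3 CPM, so the zones overlapped. The muscle paralog RPL3L had 3, 2, 4 and 0 UMIs and the testis paralog RPL10L 0, 1, 2 and 0 UMIs, all near the limit of 3 counts that a count of 0 allows. RPL10A, a core 60S protein, also had only 26.5, 17.5, 19.5 and 18.3 CPM. Ribosomal protein genes have many processed copies of near-identical sequence, and how shared reads were assigned is not given in the sources used here, so the level of a single gene is uncertain.

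The share of UMIs from the 55 genes was 10.2%, 13.1%, 11.9% and 11.6%, and each exact binomial 95% interval, which covers counting error only, rounds to the value itself at both ends. White minus red was 2.95 percentage points laterally and -0.32 medially, so the zones overlapped (mean 1.31 ± 2.31 percentage points, SD over 2 menisci; exact permutation test, two-sided p = 0.67, where 2 against 2 libraries cannot go below 0.33). With the 8 genes named by the reference table the shares were 12.8%, 16.9%, 15.1% and 14.6%. Over single cells the median share was 10.2%, 13.2%, 11.5% and 11.3%, and in the medial white library the first and the third quartile stood at 8.43% and 15.2%. Cells thinned to 1000 UMIs (1372, 1244, 1577 and 944 shallower cells left out) gave 10.3%, 13.2%, 12.0% and 12.0%. Large-subunit genes held 53.0%, 53.1%, 50.6% and 51.4% of the ribosomal protein UMIs.

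**Figure D1:**
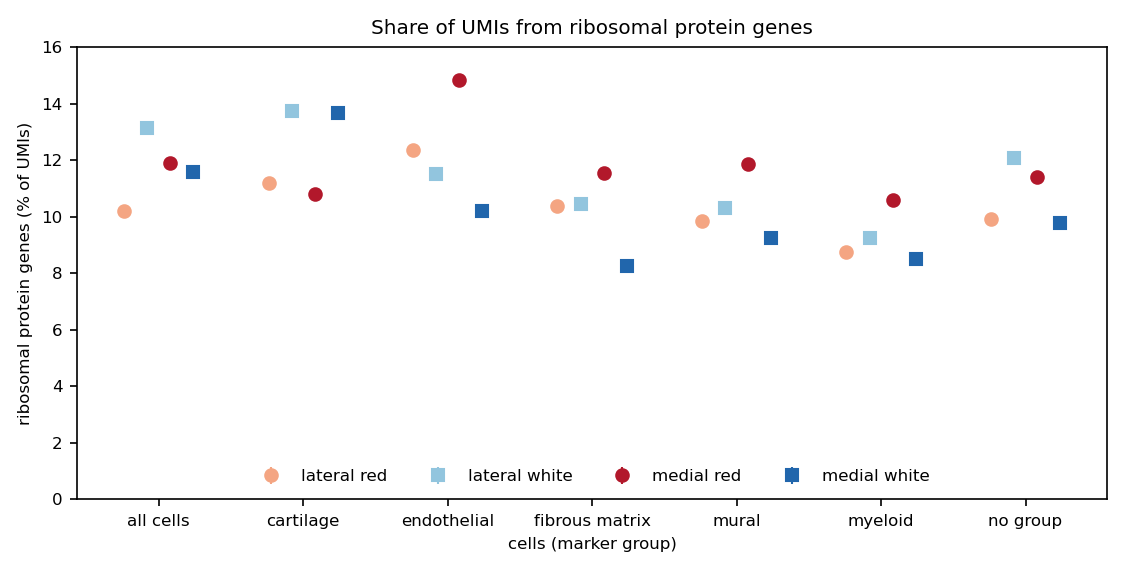
Share of UMIs from the 55 ribosomal protein genes (y axis, percent) in each library, over all cells and within marker groups (x axis), 1 point per library; counting intervals are smaller than the points. In the cartilage marker group both white libraries (13.7% and 13.7%) lie above both red ones (11.2% and 10.8%), and in the endothelial group both lie below.

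Cells were put in marker groups by the number of distinct marker genes with a UMI (at least 3 of a list and 2 more than of any other list), with no ribosomal protein gene among the markers. The 5 groups with at least 50 cells in every library were cartilage (152, 4422, 88 and 3582 cells), fibrous matrix (1631, 220, 2958 and 670), endothelial (671, 112, 754 and 208), mural, that is vessel wall muscle cells and pericytes (752, 102, 773 and 117), and myeloid (572, 69, 637 and 52). They held 67.9%, 66.7%, 76.6% and 59.3% of the cells. Cartilage cells made up 59.9% and 45.9% of the white libraries but 2.73% and 1.29% of the red ones, so a zone difference over all cells is also a difference in the kinds of cells. Marker counts near the rule's limit were held by 24.4% of the cartilage, 30.4% of the endothelial, 29.1% of the fibrous matrix, 26.8% of the mural and 9.25% of the myeloid cells. Fibrous matrix cells differed by zone in this. Near the limit were 440 of 1631 and 497 of 2958 in the lateral and medial red libraries. In the lateral and medial white libraries these were 163 of 220 and 494 of 670.

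Among the 5 groups, myeloid cells had the lowest ribosomal protein share in 3 of 4 libraries, 8.75%, 9.25%, 10.6% and 8.51%, and in the medial white library fibrous matrix cells were lower. Their difference from the mean of the other 4 groups was -1.98 ± 0.28 percentage points (SD over 4 libraries), negative in 4 of 4 libraries. Endothelial cells had 12.3%, 11.5%, 14.8% and 10.2%, which was 1.71 ± 1.57 points above the mean of the other 4 groups and higher in 4 of 4. In both white libraries they were below cartilage cells. Fibrous matrix cells (10.4%, 10.4%, 11.5% and 8.25%) and mural cells (9.83%, 10.3%, 11.9% and 9.23%) were lower than the mean of the other 4 groups in 4 of 4 libraries. The differences were -0.89 ± 0.87 and -0.69 ± 0.41 points. For these 4 groups the two-sided exact sign-flip permutation test over libraries gave p = 0.12, the smallest that 4 libraries allow (0.156 after Benjamini-Hochberg adjustment over 5 groups). Cartilage cells (11.2%, 13.7%, 10.8% and 13.7%) were 1.85 ± 2.67 points above the mean of the other 4 groups, higher in 3 of 4 libraries (exact sign-flip p = 0.375).

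Within the groups the zone differences had both signs. In cartilage cells the white zone had a share 2.55 points higher in the lateral and 2.84 points higher in the medial meniscus (mean 2.70 ± 0.20, exact permutation p = 0.33, the smallest possible). In endothelial cells white minus red was -0.83 points in the lateral and -4.65 points in the medial meniscus (mean -2.74 ± 2.70, exact permutation p = 0.33). Fibrous matrix, mural and myeloid cells had lateral differences of 0.06, 0.48 and 0.50 points (-0.13 for fibrous matrix cells thinned to 1000 UMIs) and medial differences of -3.27, -2.64 and -2.09 points (exact permutation p = 0.67 in each). In each of the 4 groups other than cartilage the medial white library had the lowest share. The 14 fibrous matrix markers were highest in the medial white library in the same sums: in myeloid cells they totalled 286, 1849, 1529 and 11632 CPM and in endothelial cells 571, 1348, 1047 and 5184 CPM. They were highest there in cartilage cells too (24300, 27638, 28657 and 62266 CPM). In that group the medial white share was 13.7%, above the 10.8% of the medial red library. In the lateral meniscus the myeloid share and these markers were both higher in the white library. Their part in the shares was not tested.

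Between zones over all cells, 53 of the 55 genes passed the filter on low counts. With edgeR's quasi-likelihood test on summed counts, the meniscus as second term and TMM scaling, the white zone had 15 members called higher and 1 called lower (adjusted p below 0.05), which is 28.3% and 1.89% of them. Over all 12457 genes tested, 18.4% were called higher and 22.6% lower. The median log2 fold change was 0.66 over the members and -0.01 over all genes. This count rested on the scaling. TMM assigned the libraries factors of 1.17, 0.81, 1.20 and 0.88, and relative to plain library totals it moved the median of all genes from -0.49 to -0.01. By library totals 2 members were called higher and 2 lower (7.35% and 41.6% of all genes), with a median of 0.17. With counts scaled to the ribosomal protein total, 1 was called higher and 1 lower (3.73% and 34.3% of all genes). DESeq2 called 29 higher and 1 lower (11.1% and 15% of all genes). Single libraries also moved it, in fits without the meniscus term that leave 1 library in a zone. Fewer members were called without either red library, and calls over all genes fell as well. More members were called without the medial white library. The median over the members was 0.54 without the lateral red and 0.80 without the medial red library (0.01 and 0.01 over all genes). It was 0.46 without the lateral white and 0.79 without the medial white library (-0.03 and -0.02 over all genes).

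**Figure D2:**
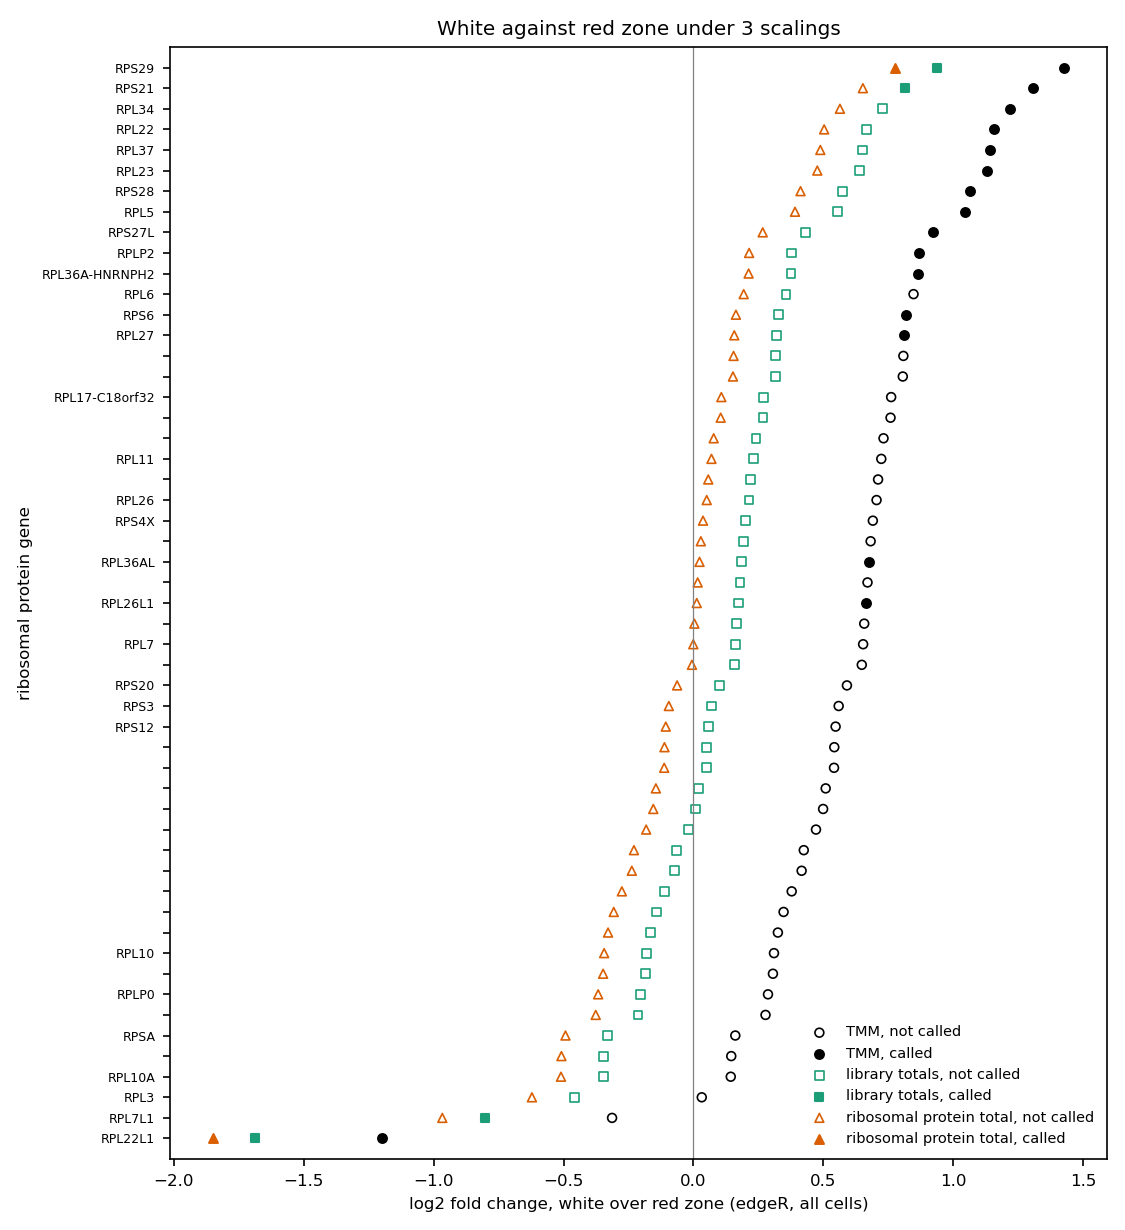
Log2 fold change of the white over the red zone (x axis) for the 53 tested ribosomal protein genes (y axis) under 3 scalings of the same counts; rows of genes not named in the text have no label, and filled symbols were called at an adjusted p below 0.05 and open ones were not. The order of the genes is nearly the same while the whole set slides: RPS29 stays at the top and RPL22L1 at the bottom under each scaling.

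By library totals 46 of the 53 genes were higher in the white library of the lateral meniscus, 22 in that of the medial meniscus and 21 in both. Lower in both menisci were, among others, RPSA, RPL3, RPL22L1, RPL7L1 and RPL10A. RPSA, a 40S protein also known as the laminin receptor, had 1732, 1542, 1872 and 1332 CPM, and RPL3, near the peptidyl transferase centre, had 1681, 1468, 1621 and 984 CPM. Neither was called (adjusted p = 0.689 and 0.94), and the log2 fold change of both was above 0 with TMM (0.16 and 0.03) and below 0 by library totals (-0.33 and -0.46). Cell makeup moved with these values: summed over all cells, the cartilage markers (13 of 13 detected) had 1216, 11697, 647 and 11813 CPM and the myeloid markers (12 of 12) 2301, 196, 2026 and 154 CPM. Their part in the values over all cells was not tested.

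Among 40S proteins, RPS29 had the largest zone difference. RPS29 (chromosome 1, 179454923 to 179456847) had 2438, 3285, 2008 and 5471 CPM, and both white libraries were above both red ones. Its log2 fold change was 1.43 ± 0.38 (SE, adjusted p = 0.0143), 0.94 by library totals (adjusted p = 0.048) and 0.77 relative to the ribosomal protein total (adjusted p = 0.0288). Within marker groups the lateral red and white libraries lay close together. They had 3048 and 2818 CPM in endothelial, 2487 and 2462 in fibrous matrix and 2084 and 2162 in myeloid cells. Mural cells had 1978 and 2198 CPM there, and cartilage cells 3147 and 3472. In each of the 5 groups the medial white library was highest, as in fibrous matrix cells (1971 CPM in medial red, 3987 in medial white). RPS29 was called in 10 of 10 settings that kept all libraries, and in 2 of 4 fits that left out a library, with both red libraries needed for the call. RPS21 (chromosome 17, 61763606 to 61764823) had 1282, 2035, 1400 and 2733 CPM, with a log2 fold change of 1.31 ± 0.30 (adjusted p = 0.00699) and 0.82 by library totals (adjusted p = 0.0366). Its zones did not overlap either, and only scaling to the ribosomal protein total ended the call among 10 settings. RPS28 (chromosome 2, 70953706 to 70954862) had 1196, 1270, 960 and 2007 CPM, almost all of its difference lying in the medial meniscus (1.07 ± 0.32, adjusted p = 0.0229). By library totals the RPS28 difference was 0.58 and not called (adjusted p = 0.143).

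RPS6, the 40S protein phosphorylated by the S6 kinases, had 1357, 1921, 1470 and 1635 CPM and a log2 fold change of 0.82 ± 0.29 at the edge of the threshold (adjusted p = 0.0494). RPS4X, encoded on the X chromosome, had 2071, 2752, 2159 and 2146 CPM and was not called (0.69 ± 0.32, adjusted p = 0.113). In RPS4X the medial white library lay just below the medial red one.

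Of the 60S proteins, RPL34 (chromosome 8, 113467779 to 113472058) had 1721, 2811, 1791 and 3007 CPM (1.22 ± 0.32, adjusted p = 0.0122). RPL22 (chromosome 6, 67092892 to 67102086) had 1059, 1777, 1238 and 1860 CPM (1.16 ± 0.29, adjusted p = 0.00969). In both, the 2 white libraries lay above the 2 red ones at similar ratios in each meniscus, 1.63-fold and 1.68-fold for RPL34 and 1.68-fold and 1.5-fold for RPL22. RPL37 (2553, 3545, 2428 and 4319 CPM, 1.14 ± 0.34), RPL23 (2407, 4280, 2949 and 4030 CPM, 1.13 ± 0.35) and the stalk protein RPLP2 (1344, 1806, 1814 and 2280 CPM, 0.87 ± 0.29) were called as well (adjusted p = 0.024, 0.0286 and 0.0398). RPLP2 overlapped between the zones. RPL5, which carries 5S rRNA into the 60S subunit, had 2269, 3707, 1839 and 2429 CPM (1.05 ± 0.33, adjusted p = 0.029), and its lateral red and medial white libraries lay close together. None of these 6 was called by library totals (adjusted p from 0.0659 to 0.303). Within cartilage cells RPL5 had 3558, 3951, 2763 and 3002 CPM and was called between zones in 0 of 12 settings that kept all libraries. In endothelial cells both white libraries were below both red ones (1905, 1655, 1707 and 1193 CPM). In fibrous matrix, mural and myeloid cells RPL5 was higher in the white library of the lateral meniscus and lower in that of the medial one.

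The remaining genes called higher were RPL36A-HNRNPH2, RPL27, RPL36AL, RPL26L1 and RPS27L. RPL36AL (chromosome 1, 179476638 to 179477820), a paralog of RPL36A that lies close to RPS29, had 351, 447, 395 and 402 CPM (0.68 ± 0.22, adjusted p = 0.0347). RPS27L (chromosome 1, 108881330 to 108886334) had 122, 132, 139 and 232 CPM, high in the medial white library alone. Its log2 fold change was 0.92 ± 0.20 (adjusted p = 0.00568) and 0.43 by library totals (adjusted p = 0.113).

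**Figure D3:**
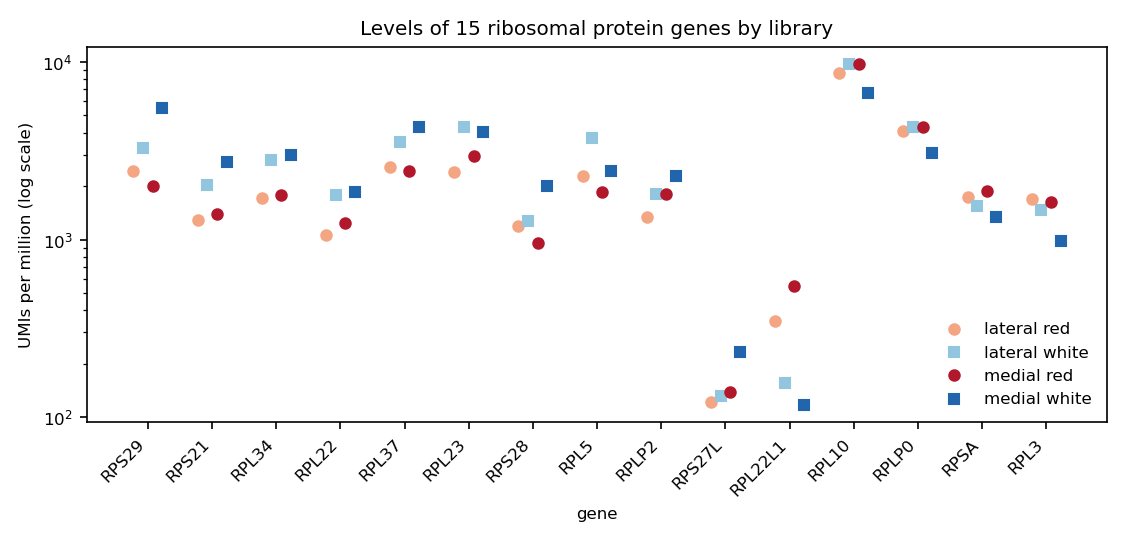
Level of 15 ribosomal protein genes (x axis) in CPM on a log scale (y axis), 1 point per library over all kept cells. RPS29, RPS21, RPL34 and RPL22 lie higher in both white libraries, RPL22L1 lies lower in both, and RPL10 and RPLP0 overlap between zones.

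RPL22L1 was the member called lower in the white zone. RPL22L1 (chromosome 13, 109495771 to 109499495) had 348, 157, 545 and 117 CPM, and both white libraries were far below both red ones. Its log2 fold change was -1.20 ± 0.28 (adjusted p = 0.00731), -1.69 by library totals (adjusted p = 0.000185) and -1.85 relative to the ribosomal protein total (adjusted p = 3e-05). It was called in 10 of 10 settings that kept all libraries and in 3 of 4 that left out a library; without the medial red library the adjusted p was 0.0903. RPL7L1 was called lower by library totals alone of these 3 scalings (-0.80, adjusted p = 0.00312).

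Because RPL22L1 and RPL22 are paralogs, their ratio within a library needs no scaling. RPL22L1 made up 24.7%, 8.10%, 30.6% and 5.90% of the UMIs of the pair over all cells (exact 95% intervals 24.0 to 25.5, 7.78 to 8.44, 30.0 to 31.2 and 5.63 to 6.17). The share was lowest in cartilage cells in each library (10.4%, 7.11%, 12.4% and 4.78%). It was highest in mural cells in the red libraries alone (34.4%, 18.04%, 38.8% and 16.7%). Endothelial cells had 24.0%, 12.9%, 33.1% and 18.7%, fibrous matrix cells 25.2%, 11.6%, 29.9% and 6.77%, and myeloid cells 25.7%, 21.3%, 27.0% and 14.0%. In each of the 5 groups and in each meniscus the white library had the lower share. Counting intervals of the 2 zones overlapped in myeloid cells of the lateral meniscus (23.0 to 28.6 in the red and 15.8 to 27.7 in the white library, which rested on 42 UMIs of RPL22L1). The exact permutation test over 2 against 2 libraries could not go below p = 0.33 in any of them.

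**Figure D4:**
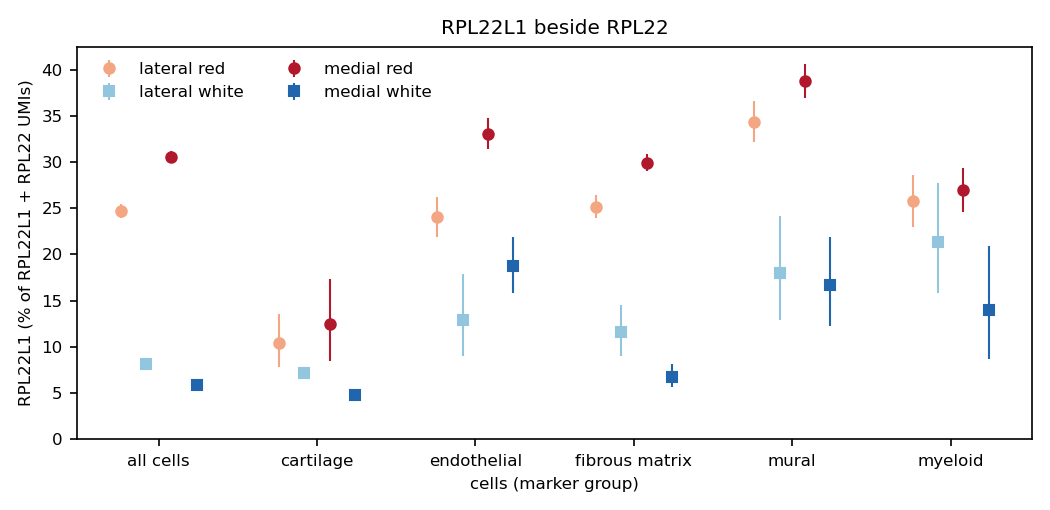
UMIs of RPL22L1 as a percentage of RPL22L1 and RPL22 together (y axis) over all cells and in each marker group (x axis), 1 point per library with exact binomial 95% intervals for counting error. In every group each white library lies below the red library of its meniscus, and cartilage cells (4.78% to 12.4%) have the lowest value of the 5 groups in each library.

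Tested within marker groups, RPL22L1 was again lower in the white zone in fibrous matrix cells (log2 fold change -1.60 ± 0.33, adjusted p = 0.00049), mural cells (-1.28 ± 0.29, adjusted p = 0.000576) and endothelial cells (-1.18 ± 0.25, adjusted p = 0.00347). It was not called in myeloid cells (-0.40 ± 0.30, adjusted p = 0.59) or cartilage cells (-0.31 ± 0.27, adjusted p = 0.741). In fibrous matrix and mural cells RPL22L1 was the single member called of 53 (8.38% and 4.37% of all genes were called lower, 5.79% and 2.67% higher; both with TMM). Of the white fibrous matrix cells, 163 of 220 lateral and 494 of 670 medial ones lay near the limit of the marker rule. The part of this in the RPL22L1 difference was not tested. The call in fibrous matrix cells was lost without the medial white library, and that in mural cells without the medial red library and when counts were scaled to the ribosomal protein total. In endothelial cells 1 member was called higher, RPS27L (1.03 ± 0.22, adjusted p = 0.00412), and 1 lower, RPL22L1 (4.67% and 5.86% of all genes), while DESeq2 called 0 (0.439% and 1.11% of all genes). The endothelial RPL22L1 call was lost relative to the ribosomal protein total (-0.63, adjusted p = 0.288) and without the medial red library (adjusted p = 0.439), and without the lateral red or the medial white library that of RPS27L (adjusted p up to 0.0797). With all libraries the median over the endothelial members was -0.47, beside 0.01 over all genes. It was -0.69 without the lateral red and -0.57 without the lateral white library (0.05 and -0.02 over all genes). Without the medial red and the medial white library it was -0.23 and -0.43 (0.05 and -0.08 over all genes). Endothelial RPS27L was at 124, 271, 133 and 325 CPM, with both white libraries at more than the level of either red one. Of 52 members tested in myeloid cells 0 were called by edgeR (2 at an unadjusted p below 0.05), against 1.56% of all genes called higher and 1.27% lower, and 0 by DESeq2 (0.987% and 0.689% of all genes).

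In cartilage cells 11 of 53 members were called higher in the white zone and 0 lower, against 2.17% and 1.92% of all genes. RPL37 had 2542, 3669, 2069 and 5117 CPM there (1.10 ± 0.24, adjusted p = 0.000311), RPS29 3147, 3472, 2230 and 6533 CPM and RPS21 1496, 2095, 1447 and 3138 CPM. In all 3 genes the white libraries lay above the red ones, with the wider gap in the medial meniscus. The median log2 fold change was 0.48 over the members and 0.12 over all genes. By library totals 4 were called (RPL37, RPS29, RPS21 and RPS28) and 0 lower (1.36% and 2.67% of all genes). Relative to the ribosomal protein total 0 were called higher and RPL22L1 lower (0.738% and 5.81% of all genes). With DESeq2 (0.225% and 0.61% of all genes) 0 were called. Without the meniscus term 0 were called too, beside 6 genes higher and 24 lower of 9347. Under the stricter marker rule 0 were called, beside 22 genes higher and 9 lower of 8441. Leaving out any 1 library lowered the count, in fits that leave 1 library in a zone. Without either red library almost no gene was called at all. The median over the members was 0.60 without the lateral red and 0.52 without the medial red library (0.47 and 0.20 over all genes). It was 0.31 without the lateral white and 0.46 without the medial white library (-0.02 and -0.03 over all genes). The red side of this comparison was small, 152 and 88 cells, of which 73 and 54 lay near the rule's limit, and its cartilage markers summed to 15516 and 10191 CPM against 15590 and 21373 in the white libraries. The part of that difference in the calls was not tested.

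Whether the zone difference in a marker group departed from the mean zone difference of the other 4 was tested directly in all 5 groups, a test chosen after the data were seen. For cartilage cells 45 of 53 members had a higher zone difference and 0 a lower one with TMM (3.71% and 0.623% of all genes), but the median of all genes was itself shifted to 0.58, beside 0.99 over the members. By library totals 1 member was called higher, RPLP0 (0.79, adjusted p = 0.0223), and 0 lower (0.342% and 1.47% of all genes). Relative to the ribosomal protein total 0 were called (0.131% and 5.37%). With TMM 1 was called without the medial red, 11 without the medial white and 23 without the lateral white library. With TMM the RPLP0 term was 1.29 ± 0.23 (adjusted p = 0.0017), and RPS3 (1.21 ± 0.23) came next. In the endothelial, fibrous matrix, mural and myeloid groups 0 members were called with edgeR and TMM (35, 4, 3 and 4 at an unadjusted p below 0.05). Of all genes 0.633%, 1.48%, 0.301% and 0.362% were called higher in these 4 groups, and 1.23%, 1.4%, 0.472% and 0.342% lower. DESeq2 called 12 members lower in the endothelial group (1.53% of all genes, beside 1.38% higher) and 0 in the other 3. By library totals RPL22L1 had a lower zone difference in fibrous matrix cells than in the other groups (-1.07, adjusted p = 0.02; 2.51% of all genes lower and 0.904% higher).

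Comparing the marker groups with each other, with the library as a block, cartilage cells had the highest levels of most members. In cartilage cells 45 of 53 were called higher than in the mean of the other 4 groups and 0 lower (22.3% and 16.3% of all 9307 genes), with a median of 0.75 against 0.02 over all genes. By library totals 17 were called higher and 3 lower (11.2% and 39.5% of all genes), and relative to the ribosomal protein total 7 higher and 10 lower (7.61% and 55.8%). Without the lateral white library 25 were called higher and 1 lower, and without the medial white library 29 higher. RPL5 (1.35 ± 0.17), RPL34 (1.14 ± 0.18) and RPL6 (1.13 ± 0.18) had the largest differences (adjusted p from 8.67e-07 to 2.22e-05) and were called higher under all 3 scalings. RPL5 had 3558, 3951, 2763 and 3002 CPM in cartilage cells beside 1905, 1655, 1707 and 1193 CPM in endothelial cells, with no overlap. RPL22L1, RPL7L1 and RPS27L were lower in cartilage cells by library totals (-1.06 for RPL22L1 with an adjusted p of 0.000505, and -0.59 for RPS27L with an adjusted p of 0.0083). With TMM these 3 were not called.

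**Figure D5:**
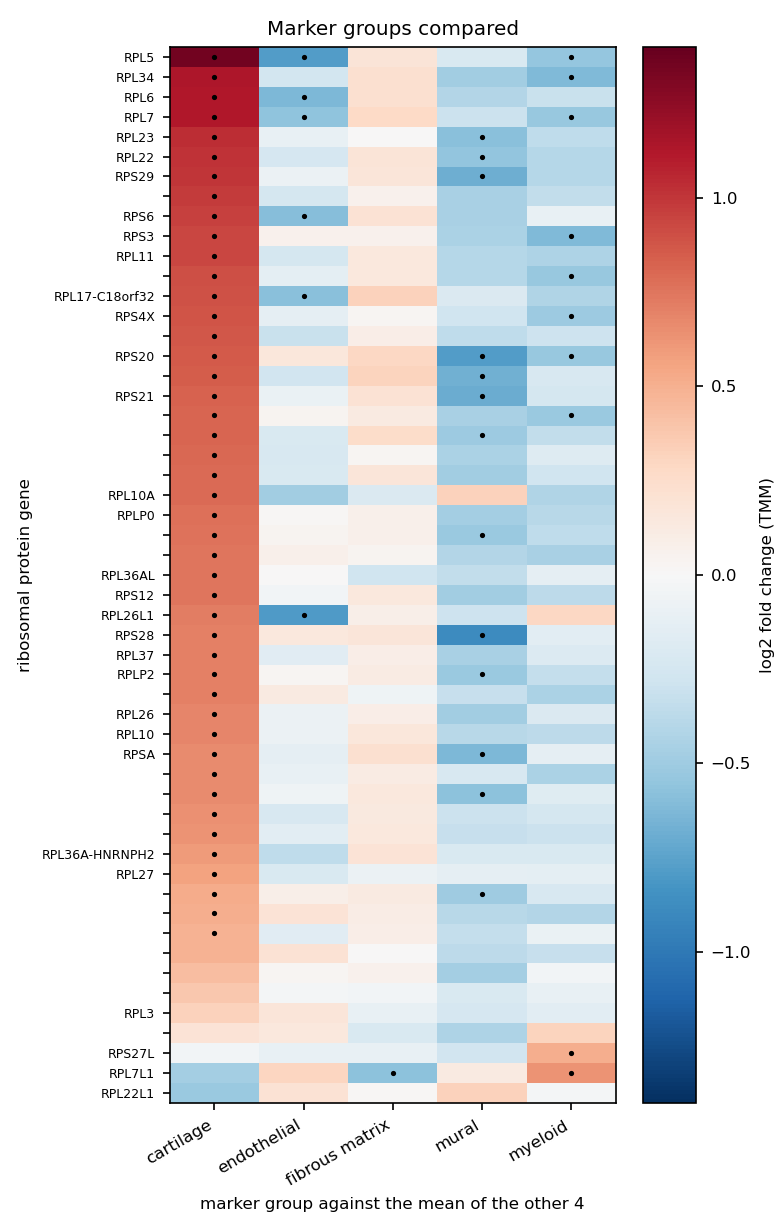
Log2 fold change with TMM scaling (colour) of each tested ribosomal protein gene (y axis) in each marker group against the mean of the other 4 (x axis); a dot marks an adjusted p below 0.05, and rows of genes not named in the text have no label. The cartilage column is mostly red with 45 dots, while mural cells have 13 and myeloid cells 10.

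Endothelial cells had 6 members called lower and 0 higher with TMM (19.8% and 18.5% of all genes): RPL5, RPL6, RPL7, RPL17-C18orf32, RPS6 and RPL26L1. RPL5 (-0.78 ± 0.19, adjusted p = 0.00246) was lower under all 3 scalings, although the whole set shifted upwards by library totals, where 15 were called higher and 1 lower (30.1% and 12.7% of all genes). Without the lateral white or the medial white library 2 were called. Mural cells had 13 called lower and 0 higher (14.6% and 17.5% of all genes), led by RPS28 (-0.88 ± 0.19, adjusted p = 0.000809), RPS20 (-0.78 ± 0.21) and RPS21 (-0.69 ± 0.18). By library totals these 3 stayed lower and RPL22L1 was higher (0.68, adjusted p = 0.0104; 6.87% of all genes lower and 31.2% higher). Without the lateral red or the lateral white library 4 mural members were called, and without the medial white library 8.

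Myeloid cells had 8 members called lower and 2 higher (24.9% and 22.9% of all genes). RPL34 (-0.62 ± 0.20), RPS3 (-0.61 ± 0.21) and RPL5 (-0.54 ± 0.19) had the largest decreases. The 2 higher ones were RPL7L1 (0.62 ± 0.22, adjusted p = 0.0216) and RPS27L (0.51 ± 0.17, adjusted p = 0.0166), which were higher under all 3 scalings and called in 2 of 4 fits that left out a library. In myeloid cells RPS27L had 168, 251, 195 and 354 CPM. Without the lateral red library 0 myeloid members were called, without the lateral white library 1 and without the medial white library 4. In fibrous matrix cells 1 member was called lower and 0 higher (9.87% and 21.9% of all genes), RPL7L1 (-0.57 ± 0.21, adjusted p = 0.0374). Leaving out the lateral red, the medial red or the lateral white library ended that call.

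Between the menisci, with the zone as second term, 0 members were called by edgeR over all cells (0 at an unadjusted p below 0.05) and 0 by DESeq2 (1 at an unadjusted p below 0.05). Over all genes edgeR called 0.0161% higher and 0.104% lower in the medial meniscus, and DESeq2 0.0482% and 0.209%.

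Lists that act with the ribosomal proteins were read from the same fits. Of 17 other TOP mRNAs, 7 were called higher in the white zone over all cells and 0 lower with TMM (18.4% and 22.6% of all genes), and 3 higher and 2 lower by library totals (7.35% and 41.6% of all genes). CCNI, a cyclin, had 207, 393, 181 and 403 CPM (1.53 ± 0.21, adjusted p = 0.000351), and the elongation factor EEF1D had 618, 1090, 589 and 820 CPM (1.14 ± 0.26, adjusted p = 0.0061). Of 26 other initiation factors 5 were called higher, a share near the 18.4% of all genes, and 0 lower, beside 22.6% of all genes. By library totals 3 were higher and 6 lower (7.35% and 41.6% of all genes). EIF4EBP2, which holds back cap-dependent translation, had 39.0, 93.8, 44.7 and 131 CPM (1.90 ± 0.18, adjusted p = 3.72e-05).

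Of 43 factors of cytosolic ribosome biogenesis 5 were called higher and 3 lower with TMM, and 1 higher and 15 lower by library totals, in each case a smaller share than of all genes (18.4% and 22.6% with TMM, 7.35% and 41.6% by library totals). WDR43, which acts in early rRNA processing, had 64.0, 22.5, 67.6 and 20.9 CPM (-1.11 ± 0.18, adjusted p = 0.00102), and NOB1, the nuclease that ends 18S rRNA maturation, had 24.7, 7.66, 25.3 and 10.0 CPM (-1.02 ± 0.21, adjusted p = 0.00353). Of 23 genes of growth signalling to the ribosome 3 were higher and 5 lower with TMM, the latter a share near the 22.6% of all genes, beside 18.4% higher. By library totals 1 was higher and 13 lower (7.35% and 41.6% of all genes). MYC, which drives ribosomal protein and rRNA genes, had 90.2, 18.7, 97.4 and 15.1 CPM (-1.99 ± 0.20, adjusted p = 5.3e-05). DEPTOR, an mTOR inhibitor, had 20.4, 4.37, 22.6 and 5.03 CPM (-1.70 ± 0.22), while DDIT4, which dampens mTORC1, had 353, 644, 271 and 644 CPM (1.55 ± 0.23). In MYC, DEPTOR and DDIT4 the zones did not overlap. Of 69 mitochondrial ribosomal protein genes 19 were higher and 1 lower with TMM (18.4% and 22.6% of all genes), and 2 and 13 by library totals (7.35% and 41.6%). MRPL46 had 10.2, 22.8, 6.93 and 22.5 CPM (1.92 ± 0.22, adjusted p = 0.000122).

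In cartilage cells against the other groups, 12 of 17 TOP mRNAs were called higher and 0 lower with TMM (22.3% and 16.3% of all genes), and 6 and 2 by library totals (11.2% and 39.5%), with a median of 0.76 beside 0.75 for the ribosomal protein genes. Of 41 biogenesis factors tested there 3 were higher and 2 lower with TMM (22.3% and 16.3% of all genes), and 0 and 24 by library totals (11.2% and 39.5%). The TMM median of the biogenesis factors was -0.15. Between zones within cartilage cells, 0 of 17 TOP mRNAs, 0 of 41 biogenesis factors and 0 of 68 mitochondrial ribosomal protein genes were called with TMM. Called higher there were 2 of 26 initiation factors and 1 of 22 growth signalling genes, DDIT4, and 0 lower. Of all genes 2.17% were called higher and 1.92% lower. That test recovered only 6 of 90 simulated 2-fold changes.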

How the data were processed

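Whole-number UMI counts were deposited as gene by barcode matrices. Cell Ranger 6.1.2 and the build Sscrofa11.1 are named in the submitters' processing notes, and the deposited counts carry no normalization. Barcodes were filtered before deposit; the annotation release and intron setting are not given in the sources used here. Symbols came from the files (14811 features) or a reference table (694), and 5775 features kept an identifier alone; positions come from the RefSeq gene table of Sscrofa11.1, matched by symbol for 53 of the 55 members.

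Barcodes with at least 500 UMIs, 200 genes and at most 20% mitochondrial UMIs (13 genes) were kept, and Scrublet calls (scanpy 1.11.5) removed: 139, 1, 2 and 0. Scrublet called almost none in 3 libraries, so removing the highest scores (265, 436, 374 and 488 barcodes) was an alternative. Counts were summed per library and marker group and tested with edgeR 4.0.16 (R 4.3.3; TMM, filterByExpr, glmQLFit, glmQLFTest), with Benjamini-Hochberg adjustment over all genes tested; the zone fits leave 1 residual degree of freedom, and the standard error is the fold change divided by the root of F. DESeq2 1.42.0, other scalings, filters, marker rules and left-out libraries were alternatives. On simulated counts the zone test over all cells recovered 40 of 94 genes with a 2-fold and 98 of 99 with a 4-fold change. It made 9 false calls among 12457 genes. In cartilage cells it recovered 6 of 90 and 42 of 87 among 9347 genes. In the data 5102 of the 12457 genes were called between zones over all cells. The part of the scaling in false calls was not tested.

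The members and lists were chosen with earlier results of these data known. Named are, per direction, up to 10 members called between zones and up to 3 in each marker group comparison (mean of at least 20 CPM, same direction in both menisci), the 5 highest and 5 lowest levels, a fixed set of paralogs and stalk proteins, and up to 4 called genes of each other list. RPL36AL, RPL27, RPL36A-HNRNPH2, RPL7 and RPL17-C18orf32 were named after their values were seen. A few genes that this rule would name are not reported here.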

Additional observations from a re-analysis of the deposited data

Results flagged for a closer look

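The white minus red difference in the ribosomal protein share ran in opposite directions in the 2 menisci over all cells. It did so too in fibrous matrix, mural and myeloid cells and in the mean of the 5 groups. Cartilage cells (2.55 points lateral and 2.84 medial) and endothelial cells (-0.83 and -4.65) each had the same sign in both menisci. The difference between the menisci was not tested, since each held 1 library per zone. Over all cells the lateral difference exceeded the medial one by 3.27 percentage points. Within marker groups the gap was 3.34 points in fibrous matrix cells, 3.12 points in mural cells and 2.58 points in myeloid cells, and 2.51 points for the mean of the 5 groups. In each of these the lateral white library was above the lateral red library and the medial white library below the medial red one. In fibrous matrix cells the lateral difference was only 0.06 points, and thinned to 1000 UMIs it was -0.13 beside -3.44 in the medial meniscus, so both menisci then had the same sign.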

How the results depend on the processing

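Of the 53 members tested between zones over all cells 16 were called, against 4 by library totals, 2 relative to the ribosomal protein total, 30 with DESeq2 and 0 to 34 when each library was left out. Within cartilage cells 11 were called, against 4 by library totals, 1 relative to the ribosomal protein total, 0 with DESeq2, with no replicate block (the meniscus term dropped) and with the stricter marker rule, 1 in cells of 1000 to under 2000 UMIs (added after the data were seen) and 0 to 9 without a library. Within endothelial cells 2 were called, against 4 by library totals, 1 relative to the ribosomal protein total and 0 with DESeq2. Over all genes these settings called 672, 950, 691 and 99. No filter gave 12 (727 genes in all), no replicate block 8 (664) and the stricter rule 8 (757). All barcodes gave 5 (779), removal of the highest doublet scores 5 (842) and the looser rule 7 (957). The endothelial count also changed when a library was left out. Within fibrous matrix cells 1 was called, and 2 with the looser rule (1279 and 1976 genes in all). Within mural cells 1 was called (482 genes in all). There 0 were called relative to the ribosomal protein total and in cells of 1000 to under 2000 UMIs (156 and 6 genes in all). In both groups the count varied when a library was left out. For myeloid cells and for the menisci no setting changed the count of 0.

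Between groups, cartilage cells had 45 calls (20 by library totals, 17 relative to the ribosomal protein total, 26 to 49 without a library). Over all genes the first 3 of these fits called 3590, 4722 and 5902. Endothelial cells had 6 (16 by library totals, 2 with no filter, 3 in cells of 1000 to under 2000 UMIs, 2 to 6 without a library) and fibrous matrix cells 1 (3 by library totals, 2 with DESeq2, 0 with no library block, 0 to 1 without a library). Mural cells had 13 (4 by library totals, 5 relative to the ribosomal protein total, 28 with DESeq2, 6 with no filter and with no library block, 4 to 18 without a library). Myeloid cells had 10 (18 by library totals, 6 relative to the ribosomal protein total, 19 with DESeq2 size factors, 30 with DESeq2, 3 with no filter, 2 with no library block, 5 with the stricter rule, 0 to 13 without a library). For other settings, here and in the next paragraph, the share over all genes is not given unless stated above. A change of count there may be one of the test and not of the members.

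For the zone difference of cartilage cells against that of other groups 45 were called (1 by library totals, 0 relative to the ribosomal protein total, 3 with DESeq2 size factors, 1 to 42 without a library); endothelial cells had 0 (12 with DESeq2, 0 to 2 without a library) and fibrous matrix cells 0 (1 by library totals, 0 to 2 without a library). The white minus red share in cartilage cells, 2.70 points, was 3.02 thinned, 3.34 as the median over cells, 3.23 with the 8 added genes, 3.17 with the looser and 2.27 with the stricter rule. Causes were not tested, except that leaving out a library leaves fewer samples. Depth limits RPL3L and RPL10L, and counting error is small for the other members over all cells.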

Other observations

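Cells outside the 5 compared groups also differed in their ribosomal protein share, given here as values with no test. T or NK marker cells had 16.2% in the lateral red library (51 cells) and 17.7% in the medial red library (47 cells); the white libraries held 1 and 0 such cells. B or plasma marker cells had 5.47% in the lateral red library (56 cells, median 3192.5 UMIs) and 9.16% in the medial red library (13 cells, median 2782 UMIs), with none in the white libraries. T or NK cells were shallow, with a median of 768 and 815 UMIs. Cells that met no marker rule had 9.91% and 12.1% in the lateral red and white libraries and 11.4% and 9.78% in the medial ones, within the range of the 5 groups in each library.

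The share changed little with depth in the lateral white library, from 13.4% at 500 to under 1000 UMIs to 12.7% at 4000 UMIs or more. In the lateral red library it ran from 11.0% down to 8.06%, and in the medial red library from 10.8% up to 12.1% over the same bins. In the medial white library it was 12.0%, 12.5%, 10.9% and 10.1% from the shallowest to the deepest of the 4 bins.

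RPL36AL made up 35.6%, 35.1%, 36.0% and 30.7% of the UMIs of RPL36AL and RPL36A-HNRNPH2 together. In fibrous matrix cells it was 28.2% to 31.1% over the 4 libraries, and in endothelial cells 34.8% to 43.5%. The other groups spread more widely, from 18.1% to 43.6% in mural, 25.7% to 43.1% in myeloid and 30.7% to 45.8% in cartilage cells. RPS27A, named by the reference table and not by the files, had 3636, 7710, 4157 and 6968 CPM, with both white libraries above both red ones (edgeR log2 fold change 1.4 ± 0.40, adjusted p = 0.0189, and 0.0571 by library totals).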
